A study of Mus musculus with 24 samples.

Results

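Cytosolic ribosomal protein genes were taken from the table of estimated counts by symbol. A gene was a member when its symbol began with Rpl or Rps and a digit, or was Rpsa, Rplp0, Rplp1 or Rplp2. S6 kinases (Rps6k symbols) and symbols with "-ps", which mark pseudogenes, were left out. This gave 89 of the 17696 listed genes. Of these, 77 encode core proteins of the cytosolic ribosome, 46 of the large and 31 of the small subunit. The other 12 are paralogs, retrocopies and Rps19bp1, which binds a ribosomal protein and is not one itself. All 89 were tested. The mean level over the libraries was at least 10 CPM (reads scaled to library size with TMM factors) in 82 members and lower in 7.

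The libraries came from MIN6 cells, which come from a mouse insulinoma and secrete insulin as β cells do, made into stable lines with lentiviral vectors and expanded from single clones after puromycin selection. The Scr line carried a scrambled sequence, the ZIP line an anti-sense sequence against miR-146a-5p, and the OE line a shMIMIC vector for overexpression of miR-146a-5p. The Scr and ZIP vectors encode copGFP and the OE vector TurboRFP on a different backbone. Clone and anti-sense sequence therefore cannot be told apart between Scr and ZIP, nor can vector, clone and microRNA level between OE and the other lines. By qRT-PCR of untreated cells, the paper reports miR-146a-5p as raised in OE and unchanged in ZIP against Scr. With cytokines it reports a smaller rise of the microRNA in ZIP and in OE than in Scr. Each line was sequenced without cytokines (Scr, ZIP, OE) and after 24 h with a cytokine mix (Scr+Cy, ZIP+Cy, OE+Cy), with 4 libraries in each of the 6 groups. The mix held TNFα at 10 ng/ml, IFNγ at 100.0 ng/ml and IL-1β at 5 ng/ml. Whether replicates were separate cultures is not stated, so p values measure only the spread between these libraries. Assigned reads ranged from 26657792 to 37168232 per library. All 10 β cell markers checked were listed, at a summed level of 23440 to 30880 CPM per library in Scr, 32540 to 35210 CPM in ZIP and 47670 to 51340 CPM in OE. Markers of macrophages (up to 4.44 CPM summed), endothelium (3.93), blood (10.2) and male germ cells (0.434) were near 0. Fibroblast markers summed to 0.537 to 54.8 CPM. Other islet hormones summed to 246 to 369 CPM in Scr, 101.5 to 305 CPM in ZIP and 46.0 to 56.0 CPM in OE, and were lowest in OE+Cy at 9.10 to 34.8 CPM. The part of these markers in the results below was not tested. None of 3 exocrine markers was listed.

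The eukaryotic ribosome is built in the nucleolus from ribosomal RNA made by RNA polymerase I and proteins that are made in the cytoplasm and imported. The mRNAs of these proteins begin with a terminal oligopyrimidine (TOP) tract, a C followed by a run of C and T letters, through which LARP1 and the mTOR pathway set their translation together. β cells make large amounts of a secreted protein, insulin, and depend on this machinery. When ribosome assembly is disturbed, free RPL5 and RPL11 bind MDM2 and stabilise p53.

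The sequences below show the start regions of members whose levels the results turn on. They are windows of 30 bases, 14 before the RefSeq start and 15 after it, on the sense strand of GRCm38.p6 (mm10), and the capitals mark the longest run of C and T that covers the start or comes within 10 bases of it. Rps6, Rps18, Rpl15 and Rpl28 are shown for their long runs.
Rpl14, chr9:120571503-120571532, + strand: ggcgggCCCTCTCTCTTCTCgctgagcgcc
Rpsa, chr9:120127752-120127781, + strand: tgggttatttaaggacgtcaTTTCCggccg
Rpl22l1, chr3:28805494-28805523, + strand: tgcggcgcaagcccgTTCTCTTCCCacggc
Rpl13a, chr7:45128730-45128759, − strand: aaaccctgcgacaagaCCTCCTCCTTTCCC
Rplp0, chr5:115559453-115559482, + strand: TCTTCgggtttcgaggaccgcctggttctc
Rps19, chr7:24884578-24884607, + strand: ccgaaaTCTCgcgagactcgacgcccgact
Rpl36al, chr12:69184052-69184081, − strand: aTTCCCgtcgctcaggttcagttccgactt
Rps6, chr4:86857352-86857381, − strand: agcggaagtcgggCCTCTTTTTCgtgacgc
Rps18, chr17:33955650-33955679, − strand: acgtcacttccgCTCTCTCTTCCacaggag
Rpl15, chr14:18270971-18271000, − strand: tgggagaaagCCTTCTTCCTTTCCTCTggc
Rpl28, chr7:4792951-4792980, + strand: cgcctctcgtgTCTCTCTTTCCgtctccgg

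RefSeq start windows were found for 68 of the 89 members. A run of at least 8 pyrimidines that covered the listed start or came within 10 bases of it was present in 29 of them (42.6%), against 14.2% of the 13884 listed genes with a window. The listed start itself was a C in 35.3% of members and 14.5% of all genes. In the window from 250 bases before to 50 after the start, on either strand, the letters CCGGAAG, bound by ETS family factors such as GABP, were found in 36.8% of members and 15.2% of all genes. The letters CCATNTT, bound by YY1, were found in 29.4% and 14.5%. The letters CACGTG, the E-box bound by MYC and MAX, were found in 7.35% and 9.52%. Of the windows shown, those of Rpl14, Rpl22l1, Rpl13a, Rps6, Rps18, Rpl15 and Rpl28 hold a run of at least 8 and those of Rpsa, Rplp0, Rps19 and Rpl36al a shorter one. These matches describe letters only, and listed starts may lie some bases from the starts used in these cells.

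The mature sequence of miR-146a-5p, which the OE vector was made to express and the ZIP vector to bind, is given with its seed (positions 2 to 8) in capitals, and below it stand the sites in annotated 3′ UTRs of members, with the complement of the seed in capitals.
mmu-miR-146a-5p: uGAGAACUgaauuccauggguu
Rpl10 site: aggcttcaatAGTTCTCctataccctac
Rpl22 site: tcagaaacttgAGTTCTCcagtagcaatg
Rps15a site: aggaacaccatAGTTCTCaccactcgtac
The complement AGTTCTC was found in 3 of 85 members with a 3′ UTR (3.53%), against 10.9% of 15283 listed genes. The 3′ UTRs of members are short, with a median of 87 bases against 962 for all genes. The sites begin at base 11 of 68 in Rpl10, base 177 of 1647 in Rpl22 and base 2926 of 4728 in Rps15a. Whether the Rps15a mRNA in these cells reaches its site depends on the isoform present, which was not tested. Compared with Scr, Rpl10, a late-joining protein of the large subunit, was higher in OE (log2 fold change, log2FC, 0.22, adjusted p = 0.00845). Rps15a, a small subunit protein, was lower in OE (log2FC −0.24, adjusted p = 0.0175), and Rpl22, an RNA-binding large subunit protein, did not pass the test (log2FC −0.20, adjusted p = 0.0591). The genes within 5 Mb had median log2 fold changes in OE of 0.23 around Rpl10, −0.09 around Rps15a and −0.23 around Rpl22. The values of Rpl10 and Rpl22 were thus of the size of those of their neighbours, and the part of the sites was not tested. In ZIP the values of Rpl10, Rps15a and Rpl22 were −0.16, −0.20 and −0.19, and none passed. With the replicate number as a block, which pairs libraries of ZIP and Scr by number, all 3 were lower in ZIP (adjusted p = 0.0141, 0.0197 and 0.0435).

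The members together took about 1% of assigned reads in every group, with the highest share in OE+Cy and the lowest in ZIP. The Scr libraries gave 1.17% ± 0.0741 (SD, n = 4), the ZIP libraries 1.03% ± 0.0640 and the OE libraries 1.23% ± 0.0413. With cytokines it was 1.12% ± 0.0880 in the Scr+Cy group, 1.06% ± 0.0963 for ZIP+Cy and 1.26% ± 0.0737 for OE+Cy. The Scr libraries ranged from 1.103% to 1.252%, the ZIP libraries from 0.964% to 1.12% and the OE libraries from 1.18% to 1.27%. In order of the mean, from OE+Cy through OE, Scr, Scr+Cy and ZIP+Cy to ZIP, neighbouring groups overlapped, while no ZIP library reached the lowest OE library. Between libraries of the same number, ZIP was below Scr in 4 of 4 pairs and ZIP+Cy below Scr+Cy in 4 of 4. In bulk libraries, a lower share of ribosomal protein mRNA in each cell and a larger amount of other mRNA cannot be told apart. The insulin genes Ins1 and Ins2, for comparison, took 0.988% to 1.49% of reads in Scr, 1.52% to 1.63% in ZIP and 2.53% to 2.92% in OE. The library numbered 4 had the highest share of ribosomal protein reads in 6 of 6 groups.

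**Figure D1:**
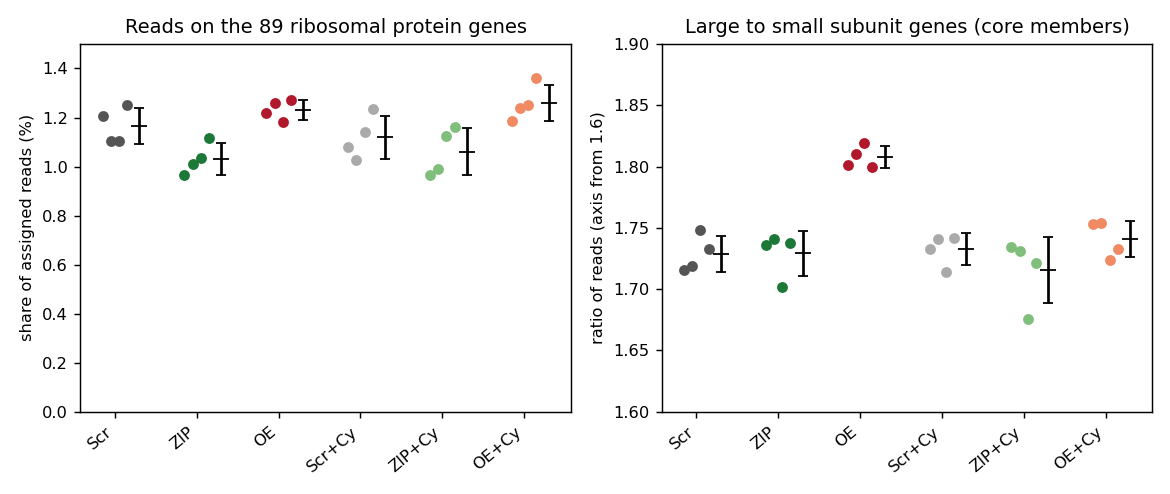
Share of assigned reads on the 89 ribosomal protein genes (left, percent) and ratio of reads on large to small subunit genes among the 77 core members (right, axis from 1.6), by group. Each point is a library and the bar beside it the mean ± SD of 4 libraries. The ZIP mean is the lowest in share, at 1.03%, and the OE libraries lie highest in ratio, at 1.80 to 1.82.

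Large subunit genes had more reads than small subunit genes by a ratio of 1.73 ± 0.0147 for Scr and 1.73 ± 0.0183 for ZIP (SD, n = 4). In OE the ratio was 1.81 ± 0.00889, and each OE library lay above each library of the other groups. With cytokines the ratio was 1.73 ± 0.0130 for Scr+Cy, 1.72 ± 0.0269 for ZIP+Cy and 1.74 ± 0.0149 for OE+Cy. The plot of shares and ratios by group shows the OE points alone at 1.80 to 1.82, with the OE+Cy points back at 1.72 to 1.75.

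Levels differed widely between members although most ribosomal proteins are present once per ribosome. Per kilobase of annotated mRNA, the highest core member was Rpl41, which encodes the shortest ribosomal protein, at 779 CPM per kilobase. Rps15, a small subunit protein, followed at 563 CPM per kilobase, then Rpl8, near the peptidyl transferase centre, at 526 and Rpl4, which lines the exit tunnel, at 464. The median over the 77 core members was 105.5 CPM per kilobase (the level of Rps10), and the lowest was Rpl37 at 13.9. The stalk base Rplp0 stood at 366 CPM per kilobase, and its acidic partners Rplp1 and Rplp2 at 282 and 50.8. Rps6, the substrate of S6 kinases, was listed at only 19.9 CPM per kilobase, Rps3, at the mRNA entry, at 160.5, and Rpl5 and Rpl11, which bind MDM2 when free, at 96.3 and 79.7. Rps15a and Rps20 carry long annotated mRNAs of 5179 and 3706 bases, so their low values of 14.2 and 23.4 depend on which isoform was present.

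These levels are uncertain because reads of ribosomal protein genes can be divided between near-identical copies. In the annotated transcripts, 33 of the 77 core members had 50% or more of their 100-base stretches in a transcript of another gene, and 70 shared a stretch with a pseudogene. The median shared proportion was 41.4%, and 5 members shared no stretch. In the count table, 10 pseudogenes of 9 members with "-ps" in the symbol held 1335 CPM together, against 11430 CPM for the members. The entry Rps6-ps4 held 559 CPM and Rps6 17.4 CPM, a ratio of 32.0. Rpl17-ps10 held 202 CPM and Rpl17, a large subunit protein, 55.5 CPM. Rps27 and its copy Rps27rt, listed at the same place on chromosome 3, held nearly equal reads, with a ratio of 0.818 to 0.993 in each library. The level of a single member can therefore reflect how reads were shared out, and fold changes of a gene and its copies could be mixed.

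Of the paralogs, Rpl7l1, a nucleolar relative of Rpl7, was at 75.2 CPM and Rpl7 at 306 CPM over the 24 libraries. Rps27l, a relative of Rps27 known to be induced by p53, was at 38.9 CPM, Rpl22l1 at 21.4 CPM and Rpl36al at 228 CPM. Rpl3l, the striated muscle form of Rpl3, had 0 to 4 reads in each library, and Rpl39l, the germ cell form of Rpl39, 0 to 5 reads. Rps4l had 0 to 14 reads. None of these 3 genes passed at an adjusted p under 0.05 in any comparison. Rpl3 itself was at 199 CPM, Rpl39 at 82.2 CPM, Rpl22 at 125 CPM and Rpl36a at 21.6 CPM. Rps19bp1 was at 15.6 CPM. Levels in CPM are not corrected for length.

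In the ZIP line, more ribosomal protein genes were lower than higher against Scr. By edgeR's quasi-likelihood test with Benjamini-Hochberg adjustment over all 17696 genes, 24 of 89 members (27%) were lower and 4 (4.49%) higher at an adjusted p under 0.05. Over all genes tested, 14.8% were lower and 13.5% higher. The median log2 fold change of the members was −0.16, against 0.00 for all genes, and −0.19 to −0.12 when single libraries were left out. The change had a negative sign in 76 of 89 members and a positive one in 13. Of the large subunit genes, 10 were lower and 2 higher of 46 (median −0.16), and of the small subunit genes 11 lower and 1 higher of 31 (median −0.15). The medians were similar, while a larger share of the small subunit genes was lower, a difference that was not tested. The study called genes at a 1.5-fold change or more with an unadjusted p under 0.05. By these thresholds 4 members were called, all higher, where 14.9% of all genes were called. With the replicate number as a block, which pairs libraries of the same number, 41 members were lower and 4 higher. Over all 17696 genes the block gave 3093 lower and 2847 higher. Without the Scr library numbered 4, which had the highest share of ribosomal protein reads of its group, 18 members passed in all. With scaling by library size alone, which places the median of all genes at −0.06, 49 were lower and 4 higher. Over all genes that scaling gave 3659 lower and 1859 higher.

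The largest rise in ZIP was that of Rpsa, a small subunit protein that is also known as the laminin receptor precursor. Rpsa was at 127, 115, 111 and 117 CPM in the Scr libraries and 193, 206, 206 and 235 CPM in the ZIP libraries. The groups did not overlap, and all ZIP libraries were higher (log2 fold change 0.84, SE 0.07, adjusted p = 1.64e-09). Rpl14, a large subunit protein, was at 50.0, 41.5, 44.0 and 45.4 CPM in Scr and 66.7, 70.1, 77.0 and 79.9 CPM in ZIP. Its groups did not overlap either (log2 fold change 0.70, SE 0.08, adjusted p = 1.36e-07). Rpl29, a heparin-binding large subunit protein, was at 127, 114, 113 and 114 CPM in Scr and 171, 185, 173 and 199.9 CPM in ZIP. All ZIP libraries were again above all Scr libraries (log2 fold change 0.64, SE 0.07, adjusted p = 5.44e-08). Rpl14-ps1, the processed copy of Rpl14, rose by nearly the same amount (0.69) as Rpl14.

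**Figure D2:**
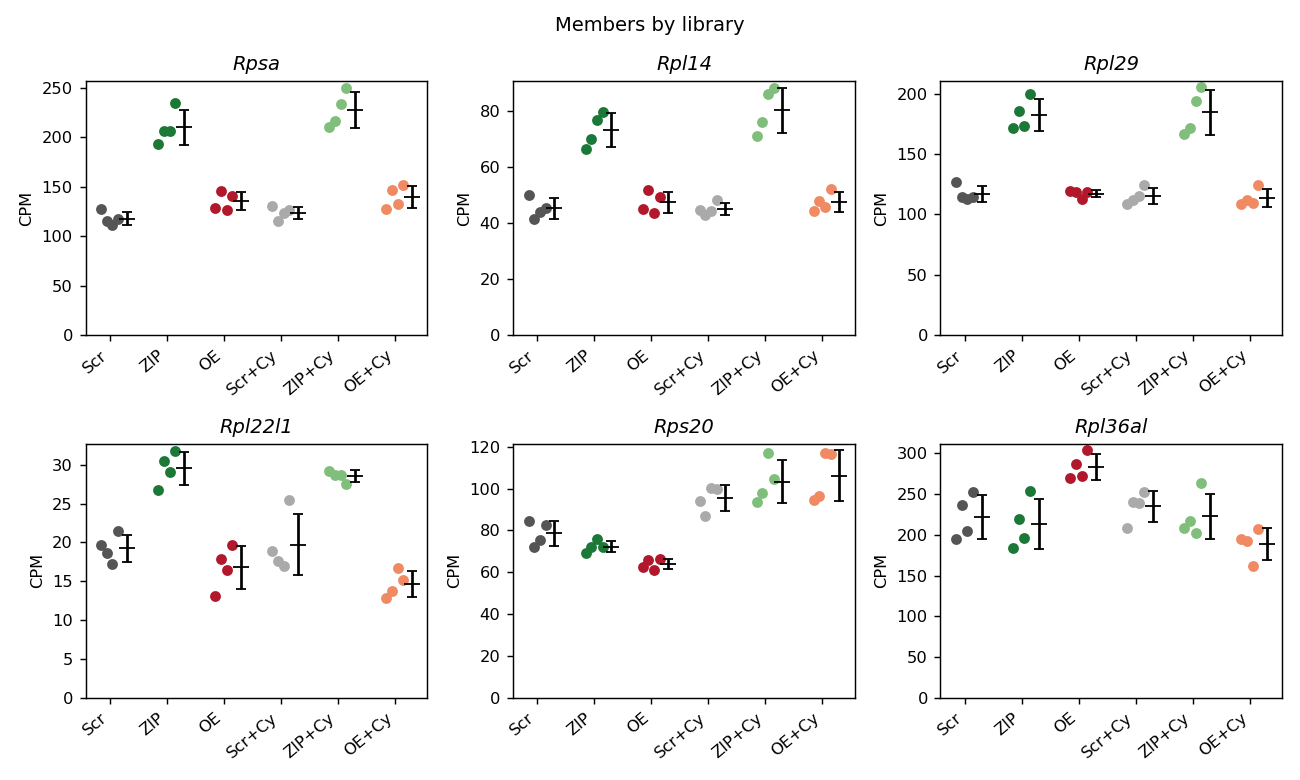
Levels of 6 members in CPM after TMM scaling, by group, with each point a library and the bar the mean ± SD of 4 libraries; each panel has its own axis from 0. Rpsa, Rpl14 and Rpl29 are higher in ZIP and ZIP+Cy than in the other groups, Rpl22l1 is highest in ZIP and ZIP+Cy, Rps20 is highest in OE+Cy, and Rpl36al is highest in OE.

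By the positions in the count table, Rpsa, Rpl14 and Rpl29 are the 3 members on the distal part of chromosome 9, beyond 100 Mb. All other genes there with a mean of at least 10 CPM were also higher in ZIP, 140 of 140, with a median log2 fold change of 0.81. In ZIP+Cy against Scr+Cy, 139 of 140 were higher with the same median (0.81), and in OE against Scr 67 of 140 were higher with a median of −0.02. Among the genes within 5 Mb of each of these 3 members, 39 of 39 were higher in ZIP than in Scr around Rpsa (median 0.83), 38 of 38 around Rpl14 (0.83) and 83 of 83 around Rpl29 (0.81). These windows lie within the distal part and recount its genes, and those around Rpsa and Rpl14 largely overlap. The changes of the 3 members were thus of the size of those of their neighbours. The other 4 members on chromosome 9, Rps25, Rplp1, Rpl4 and Rps27l, lie at 44 to 67 Mb, and the medians of their neighbours were between −0.05 and 0.06. Rps25 had a log2 fold change of 0.02, Rplp1 of −0.18, Rpl4 of 0.02 and Rps27l of 0.01. The start window of Rps27rt is also listed on chromosome 9 beyond 100 Mb, whereas the count table has this gene on chromosome 3 over Rps27. Rps27rt was lower in ZIP (log2 fold change −0.31, adjusted p = 0.0251). Without Rpsa, Rpl14 and Rpl29 the median of the members was −0.16 and 10 of 86 had a positive sign. The limit of 100 Mb and the 5 Mb window were chosen after the values were seen. No DNA copy number was measured here, so what lies behind the distal shift was not tested, and the ZIP line came from single clones.

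**Figure D3:**
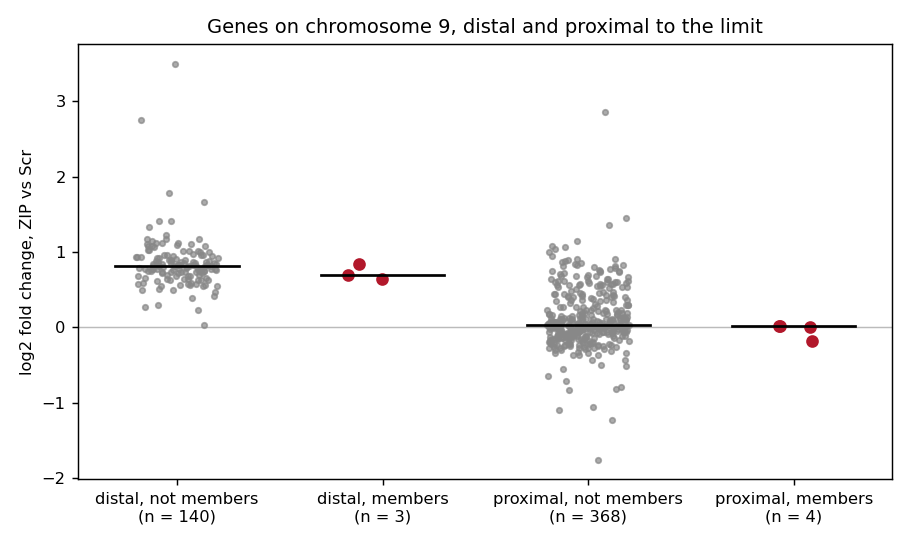
Log2 fold change of ZIP against Scr for genes on chromosome 9 at a mean of at least 10 CPM, split at 100 Mb; grey points are other genes, red points ribosomal protein genes, and black lines medians, with random sideways spread. All 140 distal genes and the 3 distal members lie above 0, and the proximal genes lie around 0.03.

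The fourth gene past the study's thresholds was Rpl22l1, the paralog of Rpl22 that can take its place in the ribosome, on chromosome 3. Rpl22l1 was at 19.6, 18.6, 17.2 and 21.4 CPM in Scr and 26.8, 30.5, 29.1 and 31.8 CPM in ZIP. No ZIP library fell within the Scr range (log2 fold change 0.62, SE 0.12, adjusted p = 0.000211). Its 25 neighbours within 5 Mb had a median of 0.07, and 13 were higher. Rpl22 itself was at 134 ± 14.6 CPM (SD, n = 4) in Scr and 117 ± 7.58 CPM in ZIP and did not pass (log2 fold change −0.19, SE 0.09, adjusted p = 0.0973). In OE, Rpl22l1 was at 13.1, 17.9, 16.5 and 19.7 CPM, where it did not pass (log2 fold change −0.20, SE 0.12, adjusted p = 0.173), and in OE+Cy it was lower than in Scr+Cy (log2 fold change −0.43, SE 0.12, adjusted p = 0.0039). With cytokines it was higher in ZIP+Cy than in Scr+Cy (log2 fold change 0.53, SE 0.12, adjusted p = 0.00112). Rpl22l1 was thus the member with a rise in ZIP, at both treatments, whose neighbours had no shift of that size.

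The lower members in ZIP changed less than the higher ones. Rpl30, a large subunit protein that binds its own transcript in yeast, was at 23.7, 33.6, 24.1 and 26.8 CPM in Scr and 17.7, 17.7, 17.9 and 23.7 CPM in ZIP. The highest ZIP library, numbered 4, stood apart from its group and just below the lowest Scr library (log2 fold change −0.49, SE 0.12, adjusted p = 0.00409). Rps12, of the small subunit head, was at 34.1, 27.2, 30.1 and 31.6 CPM in Scr and 20.6, 23.7, 24.1 and 23.6 CPM in ZIP. All ZIP libraries were lower (log2 fold change −0.42, SE 0.09, adjusted p = 0.00055). Rps4x, the X-linked form of a small subunit protein, was at 184, 167, 171 and 215 CPM in Scr and 132, 142, 156 and 157 CPM in ZIP. All ZIP libraries were again lower (log2 fold change −0.33, SE 0.10, adjusted p = 0.0112), and without the Scr library numbered 4 the adjusted p was 0.0657. Rpl41 had a log2FC of −0.30, adjusted p = 0.00228, and Rpl39, a short protein of the exit tunnel, had log2FC −0.32, adjusted p = 0.0105. Of the members named for their roles, Rplp2 (log2FC −0.29, adjusted p = 0.00221) was lower, and so was Rps19 (log2FC −0.23, adjusted p = 0.0181), the protein most often mutated in Diamond-Blackfan anaemia. Rplp0 (log2FC −0.05, adjusted p = 0.558), Rps3 (log2FC −0.11, adjusted p = 0.208) and Rps6 (log2FC 0.06, adjusted p = 0.704) did not pass. The same held for Rpl5 (log2FC −0.02, adjusted p = 0.874), Rpl11 (log2FC −0.19, adjusted p = 0.086) and Rpl13a (log2FC −0.19, adjusted p = 0.057). With the replicate number as a block, Rpl11 and Rpl13a passed as lower (adjusted p = 0.0148 and 0.0208).

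With cytokines in both lines, fewer members passed between ZIP and Scr. In ZIP+Cy against Scr+Cy, 4 of 89 were higher and 3 lower, where 12.9% of all genes were higher and 15.1% lower, and the median of the members was −0.06 against −0.01, and −0.10 to 0.00 when single libraries were left out. At the study's thresholds 3 members were called, and 15.8% of all genes. With the replicate number as a block 4 were higher and 10 lower, and with scaling by library size alone 4 higher and 6 lower. Over all 17696 genes the block gave 2680 higher and 3149 lower, and library size alone 1836 higher and 3174 lower. Rpsa was at 129.9, 116, 123 and 126 CPM in Scr+Cy and 210.5, 216, 234 and 249.7 CPM in ZIP+Cy, with no overlap (log2 fold change 0.88, SE 0.07, adjusted p = 7.37e-10). Rpl14 and Rpl29 had log2FC 0.84, adjusted p = 7.93e-09, and log2FC 0.68, adjusted p = 2.15e-08. The lower members were Rpl41 (log2FC −0.24, adjusted p = 0.0127), Rpl8 (log2FC −0.20, adjusted p = 0.00446) and Rps2, at the mRNA entry (log2FC −0.17, adjusted p = 0.0299). Rpl41 lost its call when the Scr+Cy library numbered 4 or the ZIP+Cy library numbered 1 or 2 was left out (adjusted p = 0.0523 to 0.0657). Rps2 lost it without the Scr+Cy library numbered 3 or 4 or the ZIP+Cy library numbered 1 or 2 (adjusted p = 0.0804 to 0.179), and in a fit of only these groups (adjusted p = 0.104).

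The comparisons without and with cytokines used separate libraries. Across the 82 members at 10 CPM or more, the log2 fold changes of ZIP against Scr and of ZIP+Cy against Scr+Cy had a Pearson r of 0.933, and of 0.691 without Rpsa, Rpl14, Rpl29 and Rpl22l1. The sign was the same in 72 of 82. All 7 members that passed with cytokines also passed without (25% of 28 and 100.0% of 7). For OE the same correlation was 0.692, with the same sign in 66 of 82, and 25 members passed in both (71.4% of each 35). These are values across genes, which are not independent replicates.

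**Figure D4:**
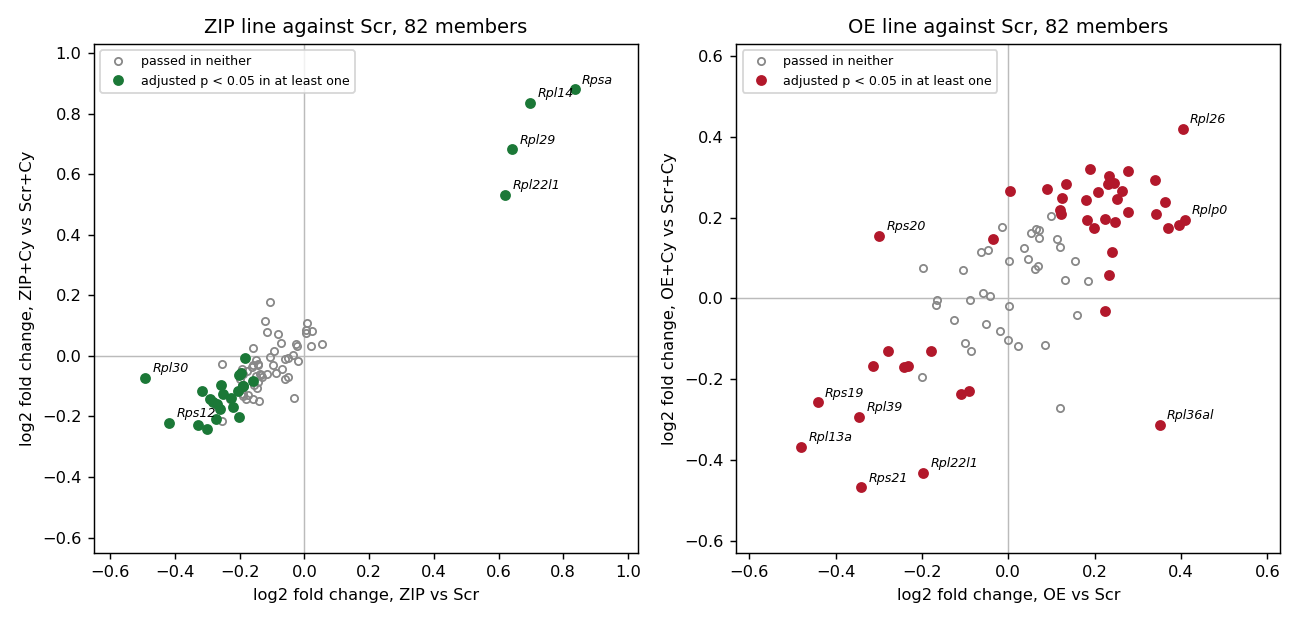
Log2 fold change of the 82 members at 10 CPM or more in ZIP (left) and OE (right) against Scr, without cytokines (horizontal) and with cytokines in both lines (vertical). Filled points passed an adjusted p under 0.05 in at least one comparison. Rpsa, Rpl14, Rpl29 and Rpl22l1 stand apart on the left at 0.53 or more in both comparisons, and the OE members spread to both sides of 0.

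In the OE line members differed from Scr in both directions and by small amounts. Of 89 members, 25 (28.1%) were higher and 10 (11.2%) lower at an adjusted p under 0.05, where 24.5% of all genes were higher and 25.6% lower. The median was 0.06, against 0.00 for all genes, and 0.03 to 0.12 when single libraries were left out. Among the core members, 13 large subunit genes were higher and 5 lower of 46, and 8 small subunit genes higher and 5 lower of 31. No member reached the study's thresholds, which 25.7% of all genes did. The share of members that rose was therefore near that of all genes, and the share that fell was below it. In every OE library the summed β cell markers lay above, and the other islet hormones below, those of each Scr library, and their part in these values was not tested.

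The largest rise in OE was that of Rplp0, the base of the stalk that recruits elongation factors. Rplp0 was at 512, 437, 448 and 458 CPM in Scr and 587, 666, 589.6 and 621 CPM in OE, with no overlap (log2 fold change 0.41, SE 0.06, adjusted p = 1.29e-06). Rpl26, a large subunit protein near the tunnel exit, was at 26.4, 25.8, 21.8 and 33.3 CPM in Scr and 32.5, 34.4, 35.2 and 39.9 CPM in OE. The highest Scr library lay above the lowest OE library (log2 fold change 0.40, SE 0.12, adjusted p = 0.00887). Rps27l was at 33.7, 38.1, 30.2 and 38.2 CPM in Scr and 47.8, 48.5, 44.3 and 44.0 CPM in OE. All OE libraries were higher (log2 fold change 0.40, SE 0.11, adjusted p = 0.00361), while Rps27 did not pass (log2 fold change 0.07, SE 0.11, adjusted p = 0.619). Rpl7l1 also rose (log2FC 0.36, adjusted p = 1.78e-06), and so did its paralog Rpl7 (log2FC 0.28, adjusted p = 0.00305).

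The largest fall in OE was that of Rpl13a, which in interferon-treated myeloid cells leaves the ribosome to join a complex that silences inflammatory mRNAs. Rpl13a was at 420.1, 350.3, 377 and 413 CPM in Scr and 268, 296, 271 and 285 CPM in OE. All OE libraries were lower (log2 fold change −0.48, SE 0.07, adjusted p = 6.39e-06). Its neighbours within 5 Mb on chromosome 7 had a median of −0.19. Rps19 was at 79.9, 64.5, 64.5 and 68.5 CPM in Scr and 52.6, 52.5, 46.3 and 53.1 CPM in OE. The groups did not overlap (log2 fold change −0.44, SE 0.07, adjusted p = 1.25e-05), and the neighbours of Rps19 had a median of 0.09. Rpl39 was at 93.1, 87.7, 85.6 and 110.0 CPM in Scr and 73.3, 72.0, 71.6 and 79.4 CPM in OE. All OE libraries were lower (log2 fold change −0.35, SE 0.09, adjusted p = 0.0029). Among the stalk proteins, Rplp1 moved opposite to Rplp0 (log2FC −0.28, adjusted p = 0.00197), and Rplp2 did not pass (log2FC −0.10, adjusted p = 0.237).

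Of the other members named for their roles, Rpl5 (log2FC 0.19, adjusted p = 0.0407) and Rpsa (log2FC 0.20, adjusted p = 0.0214) were higher, and Rps3 (log2FC −0.18, adjusted p = 0.0156) was lower. Rpl11 (log2FC −0.02, adjusted p = 0.873), Rps6 (log2FC 0.16, adjusted p = 0.145), Rpl41 (log2FC 0.09, adjusted p = 0.342) and Rpl3 (log2FC −0.06, adjusted p = 0.466) did not pass. Rpl36al (log2FC 0.35, adjusted p = 0.00598) was higher, and its paralog Rpl36a (log2FC −0.17, adjusted p = 0.169) did not pass. Rps19bp1 (log2FC 0.19, adjusted p = 0.0748) did not pass either.

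With cytokines in both lines, 26 of 89 members were higher and 9 lower in OE+Cy than in Scr+Cy, where 26.0% of all genes were higher and 27.4% lower. The median was 0.12, against 0.01 for all genes, and 0.09 to 0.17 when single libraries were left out. No member reached the study's thresholds, which 28.5% of all genes did. With scaling by library size alone, 39 were higher and 4 lower. That scaling also moved all genes, to 5527 higher and 4060 lower of 17696 with a median of 0.08. The largest rises were those of Rpl26 (log2FC 0.42, adjusted p = 0.00687), Rpl5 (log2FC 0.32, adjusted p = 0.00101) and Rpl4 (log2FC 0.31, adjusted p = 0.000163). Rpl5 was at 179, 159, 176 and 204 CPM in Scr+Cy and 204, 229.7, 232 and 229.7 CPM in OE+Cy. The OE+Cy library numbered 1 was the lowest of its group and lay just above the highest Scr+Cy library. The largest falls were those of Rps21, a small subunit protein (log2FC −0.47, adjusted p = 1.6e-05), Rpl22l1 and Rpl13a (log2FC −0.37, adjusted p = 0.000167). Of the 25 members that passed in both OE comparisons, 24 had the same sign, and the exception was Rpl36al, which was higher in OE than in Scr (log2FC 0.35, adjusted p = 0.00598) and lower in OE+Cy than in Scr+Cy (log2FC −0.31, adjusted p = 0.0129).

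Cytokines changed few ribosomal protein genes in any line. In Scr+Cy against Scr, 1 of 89 members was higher and none lower, where 10.5% of all genes were higher and 7.33% lower. At an unadjusted p under 0.05, 5 members passed, a count that can include chance passes and was not compared with that of all genes. DESeq2 called 2 members higher and 2 lower, and 1840 of all 17696 genes higher and 1621 lower. The median was −0.04, against 0.00 for all genes, and −0.09 to 0.00 when single libraries were left out. In ZIP+Cy against ZIP, 4 members were higher and none lower, with 13.6% of all genes higher and 12.8% lower and a median of 0.05 against −0.01 (0.01 to 0.09 with single libraries left out). At an unadjusted p under 0.05, 11 passed in that comparison, again with possible chance passes and no count of all genes to read it against. There DESeq2 called 5 members higher and 0 lower, and 2456 of all genes higher and 2513 lower. In OE+Cy against OE, 6 were higher and 9 lower, with 23.0% of all genes higher and 21.5% lower and a median of 0.01 against 0.02. That median was −0.04 to 0.03 when single libraries were left out, so its sign depended on the libraries used. In all 3 lines the share of members that passed in each direction was thus below that of all genes. With the replicate number as a block, 4 members passed for Scr, 10 for ZIP, all higher, and 23 for OE. Over all 17696 genes the block gave 2165 higher and 1833 lower for Scr. It gave 2780 higher and 2821 lower for ZIP, and 4387 higher and 4170 lower for OE. With scaling by library size alone, 1 member was higher and 2 lower in Scr+Cy, and 10 were higher and 6 lower in OE+Cy. Over all genes that scaling gave 1634 higher and 1757 lower in Scr+Cy, and 4716 higher and 3185 lower in OE+Cy. The study's thresholds, passed by 10.6%, 12.5% and 21.0% of all genes, took 0, 0 and 1 member.

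**Figure D5:**
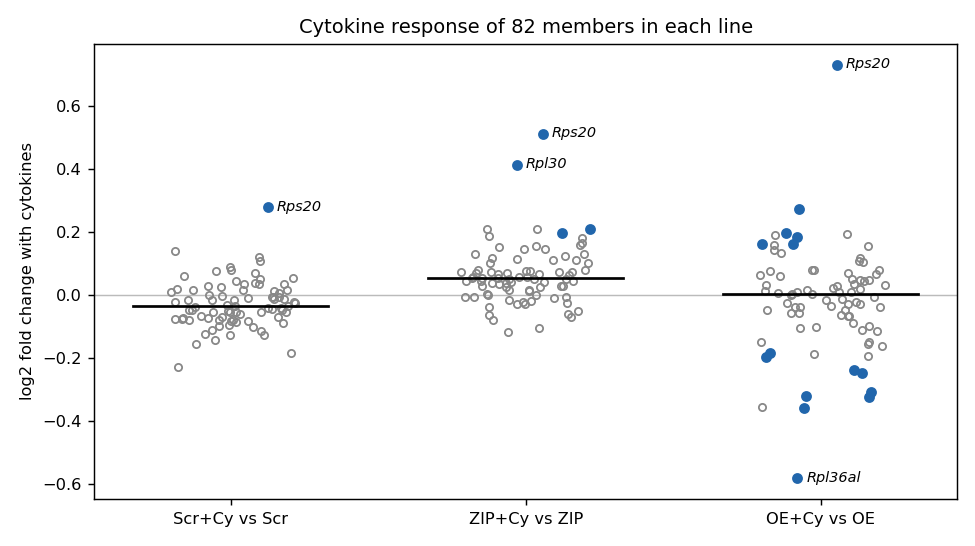
Log2 fold change with cytokines of the 82 members at 10 CPM or more in each line, with random sideways spread; filled points passed an adjusted p under 0.05, open points did not, and black lines are medians. Rps20 is the highest point in all 3 lines, at 0.28, 0.51 and 0.73, and Rpl36al is the lowest in OE, at −0.58.

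Rps20, a protein of the small subunit head, was the member that rose with cytokines in all 3 lines. It was at 84.5, 71.9, 75.5 and 82.7 CPM in Scr and 94.3, 87.1, 100.2 and 100.0 CPM with cytokines (log2 fold change 0.28, SE 0.08, adjusted p = 0.0113). It was at 69.3, 72.0, 75.9 and 71.9 CPM in ZIP and 93.5, 97.8, 117 and 105 CPM with cytokines (log2 fold change 0.51, SE 0.08, adjusted p = 1.42e-05). It was at 62.4, 65.8, 61.3 and 66.2 CPM in OE and 94.5, 96.5, 117 and 117 CPM with cytokines (log2 fold change 0.73, SE 0.08, adjusted p = 3.1e-08). In each line all libraries with cytokines lay above all libraries without. The response was larger in OE than in Scr by 0.45 on the log2 scale (SE 0.11, adjusted p = 0.00394 for the interaction). For ZIP the difference from Scr was 0.24, with a 95% interval of 0.01 to 0.46 (adjusted p = 0.753). Without cytokines Rps20 was lower in OE than in Scr (log2 fold change −0.30, SE 0.08, adjusted p = 0.00209), and with them the values of both lines were 106 ± 12.4 and 95.4 ± 6.16 CPM (SD, n = 4).

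Rpl36al, the autosomal relative of the X-linked Rpl36a, fell with cytokines in OE. It was at 269.5, 287, 273 and 305 CPM in OE and 195, 193, 162 and 208 CPM in OE+Cy. The groups did not overlap in that line (log2 fold change −0.58, SE 0.10, adjusted p = 5.04e-05). In Scr it was at 195, 237, 205 and 252 CPM and in Scr+Cy at 208, 240.3, 239 and 253 CPM, with overlapping libraries (log2 fold change 0.08, SE 0.10, adjusted p = 0.667). The response in OE differed from that in Scr by −0.66 on the log2 scale (SE 0.14, adjusted p = 0.00203 for the interaction). In ZIP the log2 fold change was log2FC 0.06, adjusted p = 0.712.

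Rps20 and Rpl36al were the 2 members whose cytokine response differed between OE and Scr at an adjusted p under 0.05, where 20.0% of all genes passed that test. Between ZIP and Scr no member passed, and 0.0565% of all genes did. At an unadjusted p under 0.05, 6 members passed the latter, a count that can include chance passes and was not compared with all genes. DESeq2 called no member in it, and 26 of all genes higher and 15 lower. The other members named with cytokines in ZIP were Rpl30 (log2FC 0.41, adjusted p = 0.0162) and Rpl7l1 (log2FC 0.21, adjusted p = 0.00311). Rpl30 lost its call, with adjusted p values of 0.0506 to 0.0523, when the ZIP libraries numbered 1, 2 or 3 were left out. In OE, Rpl37a, a zinc-binding large subunit protein, and Rpl41 fell (log2FC −0.36, adjusted p = 0.000878, and log2FC −0.32, adjusted p = 0.000625). In Scr, Rpl37a had log2FC −0.23 (adjusted p = 0.0527, and 0.0095 with the replicate number as a block), and Rpl41 log2FC −0.12 (adjusted p = 0.269). For neither did the difference between OE and Scr pass (adjusted p = 0.49 and 0.176 for the interaction). Rpl35a and Rpl19, both of the large subunit, rose in OE (log2FC 0.27, adjusted p = 0.0176, and log2FC 0.20, adjusted p = 0.0257). Their differences from Scr did not pass either (adjusted p = 0.466 and 0.221 for the interaction). Rpl35a lost its call without the OE+Cy library numbered 3 or 4 (adjusted p = 0.0554 and 0.107). Rpl19 lost it without the OE library numbered 1 or 4 or the OE+Cy library numbered 3 or 4 (adjusted p = 0.0527 to 0.142). Among the members named for their roles, Rpl13a had log2 fold changes with cytokines of −0.03 in Scr, 0.03 in ZIP and 0.08 in OE. Rplp0 had 0.02, 0.00 and −0.20.

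Against untreated Scr cells, ZIP+Cy had 6 of 89 members higher and 17 lower, with 20.4% of all genes higher and 20.4% lower, and a median of −0.09 against 0.00 (−0.13 to −0.04 with single libraries left out). At the study's thresholds 3 members were called, and 21.7% of all genes. Those were again Rpsa (log2FC 0.95, adjusted p = 7.41e-11), Rpl14 (log2FC 0.83, adjusted p = 3.76e-09) and Rpl29 (log2FC 0.66, adjusted p = 1.78e-08), while the largest falls were those of Rpl41 (log2FC −0.37, adjusted p = 0.000195), Rpl37a (log2FC −0.36, adjusted p = 0.00101) and Rps12 (log2FC −0.31, adjusted p = 0.00553). Without the Scr library numbered 1, 15 members passed. OE+Cy had 24 members higher and 15 lower than Scr, with 30.4% of all genes higher and 29.1% lower, and a median of 0.08 against 0.04 (0.04 to 0.12 with single libraries left out). With scaling by library size alone 26 were higher and 9 lower, and of all 17696 genes 5822 were higher and 4693 lower. At the study's thresholds 1 member was called, and 34.2% of all genes. It was Rpl3l, named after its values were seen, with 0 reads in each Scr library and 4, 1, 0 and 0 in OE+Cy, and it did not pass at an adjusted p under 0.05. The largest rises there were those of Rps20 (log2FC 0.43, adjusted p = 2.8e-05), Rpl35a (log2FC 0.41, adjusted p = 0.000522) and Rpl7l1 (log2FC 0.38, adjusted p = 6.67e-07). The largest falls were those of Rps21 (log2FC −0.58, adjusted p = 5.12e-07), Rpl37a (log2FC −0.47, adjusted p = 2.79e-05) and Rps19 (log2FC −0.41, adjusted p = 2.23e-05).

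For the lists that follow, the shares of all genes to read the counts against are 13.5% higher and 14.8% lower in ZIP, and 24.5% higher and 25.6% lower in OE. With cytokines they are 10.5% higher and 7.33% lower in Scr, 13.6% and 12.8% in ZIP, and 23.0% and 21.5% in OE. Other mRNAs with a TOP tract, mostly of elongation and initiation factors, had 2 of 24 higher and 4 lower in ZIP, and 11 higher and 5 lower in OE. Eef1a1, the elongation factor that delivers aminoacyl-tRNA, rose in both lines (log2FC 0.44, adjusted p = 1.44e-07 in ZIP, and log2FC 0.61, adjusted p = 1.79e-10 in OE). With cytokines, 1 of 24 rose in Scr, 6 in ZIP and 7 in OE, where 2 fell.

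Some genes for ribosome assembly were higher with cytokines in each line, where 10.5%, 13.6% and 23.0% of all genes were higher in Scr, ZIP and OE. Of 45 biogenesis factors, 9 were higher and none lower in Scr+Cy than in Scr (median 0.12), 29 higher and none lower in ZIP+Cy than in ZIP (0.24), and 21 higher and 1 lower in OE+Cy than in OE (0.17). Between lines, 3 of 45 were higher and 13 lower in ZIP (median −0.09), and 22 higher and 6 lower in OE (0.19). Fbl, the methyltransferase of box C/D particles, was lower in ZIP (log2FC −0.37, adjusted p = 0.000243), Bop1, of the PeBoW complex, was higher in OE (log2FC 0.57, adjusted p = 4.01e-06), and Ncl, nucleolin, was lower in OE (log2FC −0.69, adjusted p = 7.68e-09). Of 14 genes of RNA polymerase I and its factors, none was higher and 2 lower in ZIP, and 5 higher and none lower in OE. The initiation factor Rrn3 had log2FC −0.92, adjusted p = 1.24e-12, in ZIP. With cytokines 2 of 14 rose in Scr, 2 in ZIP and 5 in OE, and none fell. Whether these lists differed from the ribosomal protein genes was not tested.

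Of 17 known regulators of ribosomal protein mRNAs, 2 were higher and 2 lower in ZIP and 3 higher and 4 lower in OE. Mtor, the kinase that acts on TOP mRNAs, was lower in OE (log2FC −0.81, adjusted p = 6.29e-11), and Larp1, which binds the TOP tract, was higher (log2FC 0.13, adjusted p = 0.0313). In ZIP, neither Mtor (log2FC 0.03, adjusted p = 0.75) nor Larp1 (log2FC 0.10, adjusted p = 0.143) passed. With cytokines 1 regulator rose and 2 fell in Scr, 2 rose and 2 fell in ZIP, and 5 rose and 2 fell in OE. Of 10 chaperones and importers of ribosomal proteins, none was higher and 2 lower in ZIP, and 3 higher and 2 lower in OE. With cytokines 1 of these rose in Scr, 2 in ZIP and 3 in OE, where 2 fell.

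Of 12 genes of the p53 pathway, 2 were higher and 1 lower in ZIP, and 5 higher and 1 lower in OE. With cytokines 5 rose in Scr, 5 in ZIP and 9 in OE, and none fell. Trp53, which encodes p53, rose in all 3 lines (log2FC 0.90, adjusted p = 9.15e-09 in Scr, log2FC 1.05, adjusted p = 6.98e-10 in ZIP, and log2FC 0.96, adjusted p = 1.17e-09 in OE). Cdkn1a, which arrests the cell cycle, rose in OE (log2FC 1.13, adjusted p = 1.05e-07). Mdm2, which marks p53 for degradation and binds free RPL5 and RPL11, was higher in OE than in Scr (log2FC 0.56, adjusted p = 7.28e-09). Rpl5 and Rpl11 had log2 fold changes with cytokines of 0.05 and −0.12 in OE. Rps27l, which is also a p53 target, had log2FC −0.16, adjusted p = 0.241.

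Over the 24 libraries, the genes outside the members whose log2 CPM was most like the mean of the 82 members included 2 pseudogenes of members. Among 9656 genes searched, Rps6-ps4 had a Pearson r of 0.962, Gm15772, which overlaps the member Rpl26, of 0.915 and Rpl17-ps10 of 0.853. Exosc8, a subunit of the RNA exosome, had 0.865 and Snrpf, an Sm protein of the spliceosome, 0.83. The 24 points share lines, treatments and replicate numbers, so these values are a description.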

How the data were processed

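RNA of 24 libraries was sequenced by the authors as poly(A) libraries (KAPA mRNA HyperPrep, paired reads on a NovaSeq). According to the study's methods, STAR aligned the reads to mm10, and Partek Flow assigned them to transcripts of RefSeq. The submitters' processing notes name STAR 2.7.8a, Partek 11.0.24.0204, FastQC and DESeq2. The study's methods give other versions of STAR and Partek Flow. The values that the authors deposited are estimated counts, one per gene and library, not normalized, after removal of genes with fewer than 10 reads, and 30.3% of the values were not whole numbers. The use of strand is not given in the sources used here, so reads of overlapping, antisense and near-identical genes could have been mixed, and 16 members overlap another listed gene. A normalized table of the same counts was not used here.

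Estimated counts were rounded to whole numbers. In R 4.3.3, edgeR 4.0.16 fitted a single model of 6 group means to all 24 libraries, with TMM factors and glmQLFTest, and p values were adjusted by Benjamini-Hochberg over all 17696 genes. A gene passed at an adjusted p under 0.05 with no fold limit, and counts at the study's thresholds (fold change of at least 1.5, unadjusted p under 0.05) are given beside these. The SE is the log2 fold change divided by the square root of F, and 95% intervals use it with 18 residual degrees of freedom. CPM are after TMM scaling, as mean ± SD of 4 libraries. Differences between cytokine responses were tested as interactions in the same model. No test was run on shares, medians or lists. One of the gene lists is not reported here. The pipeline was tested on simulated data for ZIP against Scr, where 46 of 50 genes changed 1.5-fold and 27 of 50 changed 1.25-fold were recovered among 17532 genes. The simulation left 17332 genes unchanged and had no effect of replicate number, so these rates may not hold for the real libraries.

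The members, the gene lists and the tests were chosen with earlier results of these data known. Named genes were the stalk genes, Rpsa, Rps6, Rps3, Rps19, Rpl5, Rpl11, Rpl13a, Rpl41, the paralog pairs and Rps19bp1, and in each comparison every member past the study's thresholds at 1 CPM or more and the 3 largest rises and falls that passed at 10 CPM or more. Rpl10l, of the pair with Rpl10, is not listed in the count table. Other genes were named after their values were seen. Start windows are from RefSeq on GRCm38.p6. The 3′ UTRs, mRNA lengths and stretches shared between transcripts are from GENCODE transcripts, a separate annotation. The microRNA and coordinates are on the same assembly.

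Whether replicate numbers pair libraries was checked by correlating, over 12670 genes, how far same-numbered libraries lay from their group means. Every number had a correlation over 0.1 for ZIP with Scr (0.141 to 0.634), Scr+Cy with Scr (0.413 to 0.626), ZIP+Cy with ZIP (0.261 to 0.397), OE+Cy with OE (0.162 to 0.455) and ZIP+Cy with Scr+Cy (0.191 to 0.370). These were taken as paired by number, but the pairing entered only the fit with the replicate block. The main tests, fold changes and adjusted p values did not use it, so the values under the block are given beside them. The numbers come from the labels, which do not say what they stand for. Alternatives were DESeq2 1.42.0, DESeq2's size factors in edgeR, scaling by library size alone, TMM without Ins1 and Ins2, the filterByExpr filter, only the groups compared, the replicate block, core proteins only, leaving out each library, and pseudogene counts added to their parents.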

Additional observations from a re-analysis of the deposited data

Results flagged for a closer look

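Groups of 4 libraries were checked for 37 named members and for the share of reads. Of these 228 groups, 13 had a library far from the other 3 by Dixon's criterion. Chance flags about 5% of groups, so this number is close to what chance alone gives, and the libraries are listed as a description. In the ZIP group, library 1 was low for Rplp1 (128.6 CPM, the others 135.6 to 136.6), Rpl39 (65.09 CPM, the others 77.9 to 80.44) and Rps12 (20.64 CPM, the others 23.65 to 24.11), and library 4 was high for Rpl30 (23.72 CPM, the others 17.67 to 17.91). In Scr, library 1 was high for Rpl29 (126.9 CPM, the others 112.6 to 114.4). In OE, library 3 was low for Rps19 (46.27 CPM, the others 52.51 to 53.09) and Rpl29 (112.3 CPM, the others 118.4 to 119.3). In ZIP+Cy, library 4 was high for Rplp2 (51.01 CPM, the others 44.46 to 45.29) and Rpl41 (321.7 CPM, the others 279.6 to 285.3). In OE+Cy, library 1 was low for Rpl5 (204.3 CPM, the others 229.7 to 232.4), and library 4 was high for Rpl7l1 (89.8 CPM, the others 83.86 to 84.85), Rpl10 (335.4 CPM, the others 295.8 to 300.4) and Rps19bp1 (18.8 CPM, the others 15.38 to 15.55).

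The cytokine response of 2 members differed between OE and Scr in the test of that difference. Rps20 rose more in OE, by 0.4544 on the log2 scale (SE 0.1076, adjusted p = 0.00394, edgeR). Rpl36al fell in OE, and the difference from Scr was −0.6629 (SE 0.1446, adjusted p = 0.00203).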

How the results depend on the processing

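The number of members that passed is given here under each alternative that moved it by over 1.5 times. Counts over all genes also moved under the replicate block, library size alone and DESeq2, with several given above. For ZIP against Scr (28) it was 53 with library size alone and 45 with the replicate block, and 18 to 33 when single libraries were left out, with 18 without Scr library 4. For Scr+Cy against Scr (1) it was 3 with DESeq2's size factors, with library size alone and with TMM without Ins1 and Ins2, 4 with filterByExpr, the replicate block and DESeq2, and 1 to 3 when single libraries were left out. For ZIP+Cy against Scr (23) leaving out single libraries gave 15 to 28. For ZIP+Cy against ZIP (4) the replicate block gave 10 and leaving out single libraries 2 to 6, with 2 without ZIP library 1, 2 or 3. The block gave 23 for OE+Cy against OE (15) and 14 for ZIP+Cy against Scr+Cy (7). For the OE interaction (2) library size alone, the replicate block and DESeq2 each gave 4, leaving out single libraries 2 to 4, with 4 without OE+Cy library 4, and core proteins only 1. The study's thresholds gave 4, 3 and 3 for ZIP against Scr, ZIP+Cy against Scr and ZIP+Cy against Scr+Cy, 1 each for OE+Cy against Scr and against OE, and 0 for OE against Scr, Scr+Cy against Scr, ZIP+Cy against ZIP and OE+Cy against Scr+Cy. Where the replicate number was not shown to pair libraries, the block gave 41 members for OE against Scr (35), and 23 of 24 libraries correlated best with their own number, a hint from the data only.

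With pseudogene counts added to their parents, which was chosen after seeing the data, the share of reads without and with cytokines was 1.301% and 1.248% for Scr, 1.157% and 1.191% for ZIP, and 1.37% and 1.404% for OE, and the core proteins alone took 1.17% in OE. For the 49 changes of named genes that passed, no sign changed under any alternative, 780 values kept their side of the threshold and 18 fell below it, 17 of them with a library left out and Rps2 in a fit of only the compared groups. Named genes that did not pass were followed under the replicate block only. In ZIP against Scr it let Rpl11, Rpl13a, Rpl22, Rpl10 and Rps15a pass as lower, with the values given above, and none of the 49 calls was lost under it. Other paired comparisons had further passes under the block. Examples are Rpl7l1, higher in Scr+Cy than in Scr (adjusted p = 0.0132), and Rpl22, higher in OE+Cy than in OE (0.0341). Rpl10 and Rpl36a were lower in ZIP+Cy than in Scr+Cy under it (adjusted p = 0.0269 and 0.02). The block changed no other count by over 1.5 times. Members under 10 CPM carry few reads, and differences there are limited by depth. The cause of these shifts was not tested.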
